A study of Mus musculus with 5 samples.

Results

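The solute carrier genes were taken as all genes whose symbol begins with Slc and a family number, without the Slc26a anion exchangers and without Slc7a2, that 4 or all 5 arrays measured. Of 249 such genes named by 268 probes of the platform annotation, 176 met the array minimum and were tested, among 9715 tested genes in all. They belong to 45 numbered families, and 163 of them rest on 1 probe.

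Each of 5 arrays compared the lung of 1 C3H mouse, sensitised to and challenged with ovalbumin (an egg-white protein used as an allergen), with pooled RNA of control C3H lungs, C3H being an inbred strain. Both RNAs were amplified before the 2-colour hybridisation. No label used here gives the number of control mice pooled, the age or sex of any mouse, the treatment of the controls, the challenge schedule or the dyes. The comparison asks which transporter genes differ between the allergen-challenged and the control lung.

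Values are log ratios on the deposited scale, taken as base 2, after each array was centred on its median. The labels do not settle which RNA is the numerator, so each gene is described by the side of 0 on which it lay. Goblet cell and macrophage genes known to be induced by allergen in mouse lungs lay far on the negative side: the goblet cell gene Clca1 had -3.69, -4.77, -4.38, -4.52 and -4.29 in mice 1 to 5, the mucin gene Muc5ac averaged -3.00 ± 0.55 and the macrophage and epithelial gene Retnla averaged -4.79 ± 0.30 (SD, n = 5 each). If the pool is the numerator, the negative side holds genes higher in ova lungs. If the ova lung is the numerator, it holds genes lower there.

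Solute carriers are membrane proteins that move small molecules by facilitated diffusion, by exchange or by coupling to an ion gradient. Families are numbered by sequence similarity, and most keep to a class of substrate, such as amino acids, sugars, metal ions or the nucleotide sugars used for glycosylation. In the lung they feed immune and epithelial cells, supply the Golgi for glycoprotein synthesis, recycle surfactant phosphate and clear circulating amines such as serotonin. Some need a partner protein to reach the membrane: basigin for the lactate carriers, and the heavy chains Slc3a1 and Slc3a2 for the Slc7 amino acid carriers.

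By limma's moderated test with Benjamini-Hochberg adjustment over all genes (threshold 0.05), 46 of the 176 solute carrier genes were called different from 0, 28 on the negative and 18 on the positive side. This was 15.9% of them on the negative side, where 15.2% of all tested genes lay, and 10.2% on the positive side, against 12.3% of all tested genes. For either side the share was 26.1%, against 27.5% of all tested genes, so the number of calls was near that of genes in general. The counts depended on the mice: without mouse 5 the negative side held 18 called genes, and without mouse 2 the positive side held 11. The counts over all tested genes were lower too, down to 929 negative and 672 positive with 1 mouse left out. All 5 arrays share 1 control pool, and no label tells whether the dyes were swapped. A trait of the pool, or of the dyes if they were not swapped, would shift all arrays alike. Such a shift cannot be told apart here from a difference of the ova lungs. The RNA is of whole lungs, so a difference in the number of cells of a type and one in RNA per cell cannot be told apart.

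The ratios were small. The lowest mean was -0.80 for Slc37a2, and 188 of the tested genes had a lower one. The highest was 0.66 for Slc9a3r2, and 78 genes had a higher one. Of the solute carrier genes 8 (4.55%) had a mean beyond 0.5 in size, as did 616 (6.34%) of all tested genes, and 0 lay beyond 1, as did 135 (1.39%) of all. The last count rests on the choice of genes, since the anion exchanger gene Slc26a4 (-3.31) and the arginine carrier gene Slc7a2 (-1.15), both outside it, had larger ratios. If the log base is 2, the called genes differed by between 1.11-fold and 1.74-fold. The median SD between mice was 0.126, near the 0.127 of all tested genes.

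**Figure D1:**
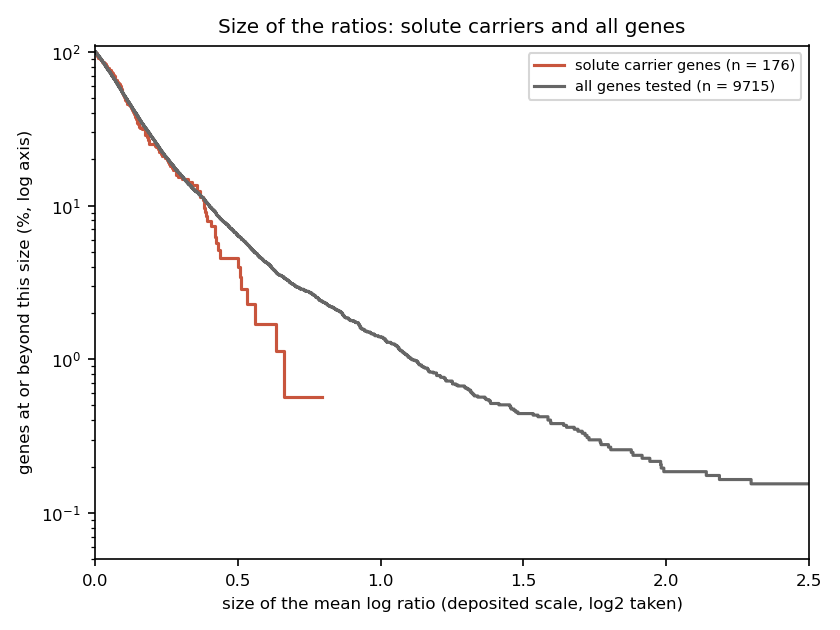
Share of genes (vertical, %, log axis) whose mean log ratio over the ova mice is at or beyond a given size (horizontal), for the 176 solute carrier genes (red) and all 9715 tested genes (grey), with the horizontal axis ending at 2.5. The curves run together up to a size of about 0.3, and the red curve ends at 0.80 while the grey one goes on.

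Promoters are shown for Slc37a2, the gene of lowest mean, for Slc35b1, and for a pair of mitochondrial carrier genes that lay on opposite sides, Slc25a3 (negative) and Slc25a4 (positive). They are RefSeq windows of 250 bases before to 50 bases after the gene's start in build GRCm38.p6, printed 5′ to 3′ on the gene's strand, with motif matches in capitals. Slc37a2 lies on the minus strand at chr9:37255689-37255988, Slc35b1 on the plus strand at chr11:95384606-95384905, Slc25a3 on the minus strand at chr10:91123918-91124217 and Slc25a4 on the minus strand at chr8:46211013-46211312.
Slc37a2: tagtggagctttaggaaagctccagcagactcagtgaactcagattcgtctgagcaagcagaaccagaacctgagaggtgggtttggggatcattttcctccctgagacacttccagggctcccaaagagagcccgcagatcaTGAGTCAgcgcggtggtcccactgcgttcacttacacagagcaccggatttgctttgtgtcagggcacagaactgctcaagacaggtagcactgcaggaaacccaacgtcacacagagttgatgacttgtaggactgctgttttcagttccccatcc
Slc35b1: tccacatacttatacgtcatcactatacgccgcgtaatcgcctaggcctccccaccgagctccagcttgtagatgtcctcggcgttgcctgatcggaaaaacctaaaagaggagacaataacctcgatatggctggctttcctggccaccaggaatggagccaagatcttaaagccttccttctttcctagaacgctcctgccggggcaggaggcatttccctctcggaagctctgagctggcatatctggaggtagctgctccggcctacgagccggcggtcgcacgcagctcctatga
Slc25a3: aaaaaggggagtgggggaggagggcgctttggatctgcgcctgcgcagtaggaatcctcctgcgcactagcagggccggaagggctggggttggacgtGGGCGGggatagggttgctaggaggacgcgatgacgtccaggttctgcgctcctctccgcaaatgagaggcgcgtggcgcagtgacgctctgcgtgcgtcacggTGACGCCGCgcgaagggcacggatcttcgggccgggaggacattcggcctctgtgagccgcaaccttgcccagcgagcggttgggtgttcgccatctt
Slc25a4: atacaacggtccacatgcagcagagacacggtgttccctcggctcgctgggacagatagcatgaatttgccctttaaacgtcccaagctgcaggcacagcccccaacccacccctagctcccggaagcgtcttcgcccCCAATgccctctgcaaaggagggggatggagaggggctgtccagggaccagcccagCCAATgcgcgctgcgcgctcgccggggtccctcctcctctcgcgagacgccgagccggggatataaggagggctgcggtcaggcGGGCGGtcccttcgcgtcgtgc
The capitals in Slc37a2 are an AP-1 site (TGANTCA). In Slc25a3 they are a GC box (GGGCGG) and an antioxidant response element (TGACNNNGC), and in Slc25a4 a GC box and 2 CCAAT boxes. Slc35b1 held none of the motifs searched. Both strands were searched for these 4 motifs and for the E-box (CACGTG), the GATA site (AGATAA), a PU.1 site (GAGGAAGT), the STAT6 site (TTC and GAA 4 bases apart) and the ER stress element (CCAAT and CCACG 9 bases apart, so that it contains a CCAAT box).

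RefSeq windows were given for 135 of the 176 genes: 21 called on the negative side, 12 called on the positive side and 102 not called. Counting 1 window a gene, the GC box was present in 10 of 21, in 10 of 12 and in 64 of 102 of these, against 35.9% of the 27025 windows of all genes in the table, on the array or not. The AP-1 site was present in 4 of 21, 0 of 12 and 8 of 102, against 7.93% of all windows. The STAT6 site was present in 2 of 21, 1 of 12 and 5 of 102, against 6.99%. The CCAAT box was present in 4 of 21, 5 of 12 and 40 of 102 (37.9% of all windows), the E-box in 2, 0 and 14 (7.24%), the GATA site in 3, 0 and 9 (11.4%), the PU.1 site in 0, 0 and 5 (3.28%) and the antioxidant response element in 3, 1 and 12 (12.5%). The ER stress element was present in 0 of the 135 solute carrier windows and in 0.13% of all windows. A match describes letters in the window only.

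Families known for amino acids and peptides held 31 genes, of which 18 did not pass, 9 passed below 0 and 4 above 0. The share called was 41.9%, against 27.5% of all tested genes. The median of the 31 genes was -0.04, against 0.00 for all tested genes. Here and below, genes were classed by family number, not by their own substrate. The 31 thus include carriers of creatine and serotonin, and Slc6a19os, by its name an opposite-strand transcript. Slc1a1, a sodium-driven carrier of glutamate, aspartate and cysteine, had -0.27, -0.62, -0.50, -0.55 and -0.57 in mice 1 to 5, with a mean of -0.50 ± 0.14 (SD, n = 5, adjusted p = 0.00143). All mice lay on the negative side, and mouse 1 was closest to 0. Slc6a14, an epithelial carrier of neutral and cationic amino acids, had -0.17, -0.31, -0.64, -0.55 and -0.49 in mice 1 to 5, with a mean of -0.43 ± 0.19 (SD, n = 5, adjusted p = 0.00484). Its 5 values were likewise all negative, with mouse 1 closest to 0.

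The Slc7 family holds the light chains of heteromeric amino acid carriers and the cationic amino acid carriers. Its 7 tested genes had means between -0.38 and -0.04, and 4 passed (57.1%, against 15.2% of all tested genes on that side). The rule had set aside Slc7a2, and the cationic amino acid carrier Slc7a1 and the cystine carrier Slc7a11 had values in 3 mice only. Slc7a7, which exports cationic amino acids from macrophages and epithelia, had -0.14, -0.30, -0.35, -0.57 and -0.55 in mice 1 to 5, with a mean of -0.38 ± 0.18 (SD, n = 5, adjusted p = 0.0065). Slc7a8, a carrier of neutral amino acids, averaged -0.37 ± 0.21 (SD, n = 5, adjusted p = 0.012) and lost its call without mouse 5 (adjusted p = 0.0503). Slc7a9, the light chain of the cystine and dibasic amino acid carrier, averaged -0.27 ± 0.15 (SD, n = 4, adjusted p = 0.0274) and lost its call without mouse 1 (adjusted p = 0.0551), mouse 2 (0.0874) and mouse 5 (0.099). Slc7a13, an acidic amino acid carrier of kidney, averaged -0.22 ± 0.13 (SD, n = 5, adjusted p = 0.0243) and lost its call without mouse 2 (adjusted p = 0.0781), mouse 3 (0.0806) and mouse 5 (0.0878). Slc7a5, the carrier of large neutral amino acids used by proliferating cells, averaged -0.14 ± 0.10 (SD, n = 4, adjusted p = 0.127) and did not pass.

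Their heavy chains did not lie on the same side. Slc3a2, the partner of Slc7a5, Slc7a7 and Slc7a8, had 0.07, 0.43, -0.01, -0.55 and 0.39 in mice 1 to 5. Mice 2 and 5 were high and mouse 4 was low. The mean was 0.07 ± 0.39 (SD, n = 5, adjusted p = 0.747), with a 95% interval from -0.24 to 0.37. Slc3a1, the partner of Slc7a9, averaged 0.26 ± 0.19 (SD, n = 4, adjusted p = 0.0521) and lay above 0 in every mouse that measured it without passing.

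The Slc6 family of sodium and chloride coupled carriers held called genes on both sides, 2 negative and 3 positive of 10. This was 50% called, against 27.5% of all tested genes. The 10 include Slc6a19os, by its name an opposite-strand transcript and not a carrier, which did not pass (0.15 ± 0.09, SD, n = 5, adjusted p = 0.0507). Beside Slc6a14, the betaine and GABA carrier gene Slc6a12 was negative (-0.27 ± 0.14, SD, n = 5, adjusted p = 0.0146) and lost its call without mouse 3 (adjusted p = 0.0536). The creatine carrier gene Slc6a8 was positive with 0.22, 0.40, 0.44, 0.37 and 0.51 in mice 1 to 5, with a mean of 0.39 ± 0.11 (SD, n = 5, adjusted p = 0.00227). Slc6a4, the serotonin carrier with which lung endothelium takes up circulating serotonin, had 0.21, 0.38, 0.22, 0.16 and 0.16 in mice 1 to 5, with a mean of 0.22 ± 0.09 (SD, n = 5, adjusted p = 0.0131). All its values were above 0, with mouse 2 apart from the rest, and its probe's ID number is 12 away from that of S100a4 (-1.73), on the opposite side. Whether probes with near ID numbers are neighbouring spots is not known here. The glycine carrier gene Slc6a9 averaged 0.41 ± 0.32 (SD, n = 5, adjusted p = 0.0289), but mouse 1 lay below 0 (-0.10) and the call was lost without mouse 2 (adjusted p = 0.0632), mouse 3 (0.103), mouse 4 (0.08) and mouse 5 (0.101).

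Glutamine carriers also lay on both sides. Slc1a5, a neutral amino acid exchanger that brings glutamine into activated and dividing cells, had 0.10, 0.46, 0.25, 0.65 and 0.37 in mice 1 to 5, with a mean of 0.37 ± 0.21 (SD, n = 5, adjusted p = 0.0113). Slc38a1, a sodium-driven glutamine carrier, averaged -0.38 ± 0.30 (SD, n = 5, adjusted p = 0.0311), from -0.07 in mouse 4 to -0.84 in mouse 5, and lost its call without mouse 2 (adjusted p = 0.0822), mouse 3 (0.0956) and mouse 5 (0.0616). Slc38a9, a lysosomal membrane protein that reports arginine to the mTOR kinase, averaged -0.38 ± 0.35 (SD, n = 5, adjusted p = 0.0446), from -0.04 in mouse 5 to -0.92 in mouse 4, and lost its call without mouse 2 (adjusted p = 0.122), mouse 3 (0.0917) and mouse 4 (0.0691). Both genes were thus negative in every mouse and varied widely among them. The peptide carrier gene Slc15a2 averaged 0.18 ± 0.14 (SD, n = 5, adjusted p = 0.057) and passed without mouse 4 (adjusted p = 0.0495), with quantile normalization (0.0420), with scaled arrays (0.0487) and with array weights (0.0421).

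Sugar families held 16 genes, of which 2 passed on each side (25% called, against 27.5% of all tested genes). Slc37a2, a sugar phosphate and phosphate exchanger of the endoplasmic reticulum that is abundant in macrophages, had -0.35, -0.94, -0.70, -0.85 and -1.13 in mice 1 to 5, with a mean of -0.80 ± 0.29 (SD, n = 5, adjusted p = 0.00179). All mice were negative and mouse 1 was closest to 0. The medians of 6 macrophage and monocyte markers were -0.27, -1.32, -1.10, -1.001 and -1.27 in mice 1 to 5, also with mouse 1 closest to 0, and their part in the ratio of Slc37a2 was not tested. For 54.3% of all called genes mouse 1 was likewise closest to 0. The glucose carriers of widest use did not pass: Slc2a1, the carrier of most cells, averaged -0.14 ± 0.18 (SD, n = 4, adjusted p = 0.221), and Slc2a3, a carrier of leukocytes and neurons, 0.10 ± 0.15 (SD, n = 5, adjusted p = 0.269). Their 95% intervals ran from -0.32 to 0.04 and from -0.04 to 0.25. The insulin-regulated carrier gene of muscle and fat, Slc2a4, averaged 0.19 ± 0.08 (SD, n = 4, adjusted p = 0.0422) and lost its call without mouse 2 (adjusted p = 0.0768), mouse 3 (0.116), mouse 4 (0.111) and mouse 5 (0.0981). Slc50a1, a sugar carrier of the SWEET type, was positive with 0.28, 0.43, 0.21, 0.44 and 0.42 in mice 1 to 5, with a mean of 0.36 ± 0.11 (SD, n = 5, adjusted p = 0.003). The sodium-driven glucose carrier gene Slc5a1 averaged 0.10 ± 0.09 (SD, n = 5, adjusted p = 0.155) and did not pass, and Slc5a7, which carries choline although it belongs to a family of sugar carriers, averaged -0.38 ± 0.29 (SD, n = 5, adjusted p = 0.0252) and lost its call without mouse 2 (adjusted p = 0.0775) and mouse 3 (0.0621).

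**Figure D2:**
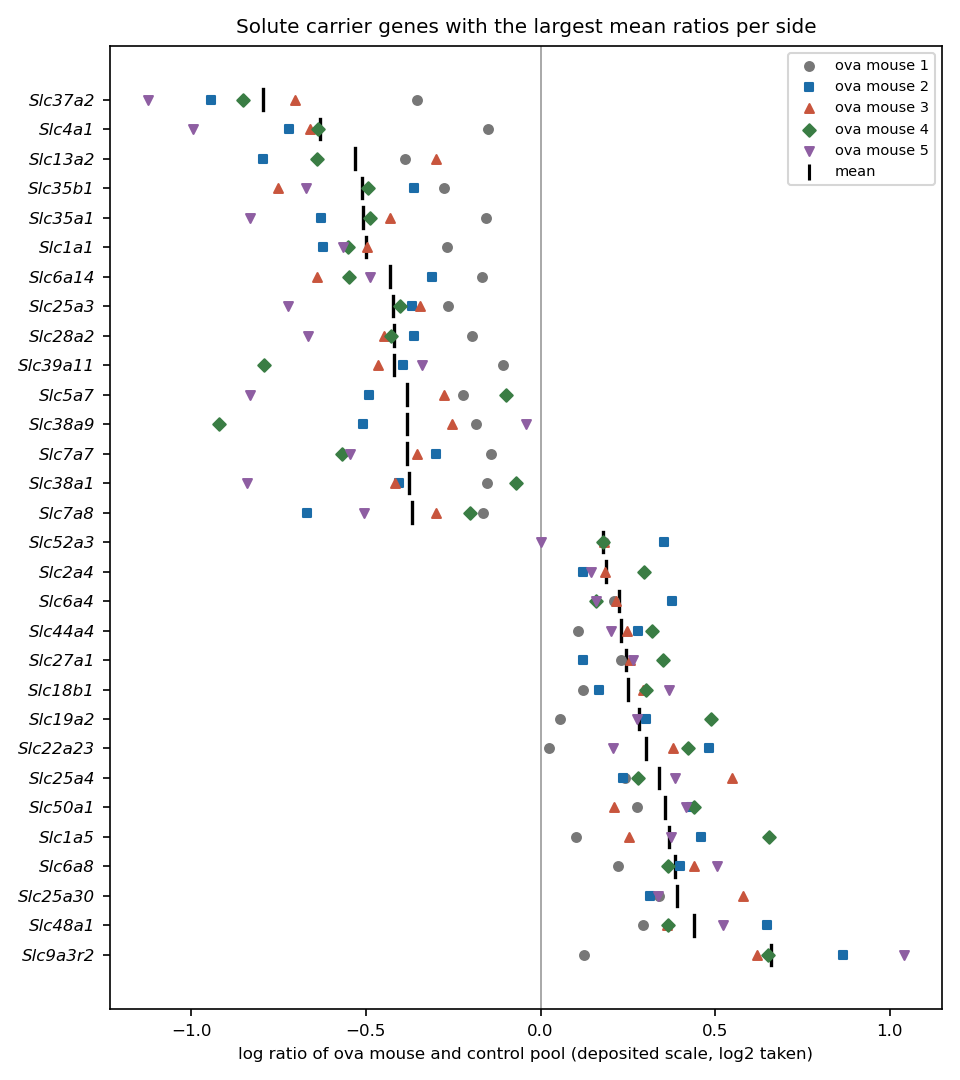
Log ratio of each ova mouse and the control pool (horizontal) for the 15 solute carrier genes of largest mean on each side among those called by limma and with all values on 1 side of 0 (vertical), with a symbol per mouse and a black bar for the mean. Slc37a2 (-0.80) and Slc9a3r2 (0.66) stand at the ends, and mouse 1 (grey) is often the value closest to 0.

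Carriers of mono-, di- and tricarboxylates held 14 genes, of which 3 passed, all below 0 (21.4% called, against 27.5% of all tested genes). Slc13a2, a sodium-driven carrier of succinate and citrate best known from kidney and gut, had -0.39, -0.79, -0.30 and -0.64 in mice 1, 2, 3 and 4, with a mean of -0.53 ± 0.23 (SD, n = 4, adjusted p = 0.00647). Slc16a3, the lactate exporter of glycolytic cells, had -0.21, -0.61, -0.21, -0.26 and -0.34 in mice 1 to 5, with a mean of -0.33 ± 0.17 (SD, n = 5, adjusted p = 0.0101). Both genes were negative in every mouse that measured them. Slc16a6 averaged -0.19 ± 0.07 (SD, n = 5, adjusted p = 0.0194) and lost its call without mouse 3 (adjusted p = 0.0659), mouse 4 (0.051) and mouse 5 (0.0664). Slc16a1, the lactate carrier of most cells, had values in 3 mice only (0.22, 0.05 and 0.02 in mice 1, 2 and 5) and was not tested. The sulphate carrier gene Slc13a1, singled out after its values were seen, averaged -0.02, and its probes disagreed: 1 lay above 0 in all mice (mean 0.27) and the other below 0 in all (-0.30).

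Carriers of the mitochondrial inner membrane, the Slc25 family, were the largest family with 27 genes. Of these 2 passed on each side and 23 did not pass (14.8% called, against 27.5% of all tested genes). Slc25a3, which brings phosphate into the matrix for ATP synthesis, had -0.26, -0.37, -0.35, -0.40 and -0.72 in mice 1 to 5, with a mean of -0.42 ± 0.18 (SD, n = 5, adjusted p = 0.00442). Slc25a4, the ADP and ATP exchanger of heart and muscle, had 0.24, 0.24, 0.55, 0.28 and 0.39 in mice 1 to 5, with a mean of 0.34 ± 0.13 (SD, n = 5, adjusted p = 0.0052). Both serve ATP supply, and every value of the first was below and every value of the second above 0. The medians of 6 heart muscle markers were -0.11, 0.51, 0.71, 0.75 and 0.78 in mice 1 to 5, and their part in the ratio of Slc25a4, which was 0.24 in mouse 1, was not tested. The ID number of the Slc25a4 probe is 24 away from that of Tgtp1 (-1.06), on the opposite side. Slc25a30, a carrier first known from kidney, was positive with 0.34, 0.31, 0.58 and 0.34 in mice 1, 2, 3 and 5, with a mean of 0.39 ± 0.13 (SD, n = 4, adjusted p = 0.0057). Slc25a11, the oxoglutarate and malate exchanger, averaged -0.15 ± 0.08 (SD, n = 5, adjusted p = 0.0453) and lost its call whichever mouse was left out (adjusted p between 0.0505 and 0.135). The citrate exporter gene Slc25a1 (0.01) and the acylcarnitine carrier gene Slc25a20 (0.12) did not pass, with 95% intervals from -0.12 to 0.13 and from -0.02 to 0.25.

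Carriers of nucleosides and nucleotide sugars held 16 genes, of which 5 passed on the negative and 2 on the positive side (43.8% called, against 27.5% of all tested genes). Slc35b1, an exchanger that brings ATP into the endoplasmic reticulum, where chaperones use it, had -0.28, -0.36, -0.75, -0.50 and -0.67 in mice 1 to 5, with a mean of -0.51 ± 0.20 (SD, n = 5, adjusted p = 0.00305). Slc35a1, which brings CMP-sialic acid into the Golgi for the capping of glycoproteins such as mucins, had -0.16, -0.63, -0.43, -0.49 and -0.83 in mice 1 to 5, with a mean of -0.51 ± 0.25 (SD, n = 5, adjusted p = 0.00577). Both were negative in all mice. Slc28a2, a sodium-driven carrier of purine nucleosides, had -0.20, -0.36, -0.45, -0.43 and -0.67 in mice 1 to 5, with a mean of -0.42 ± 0.17 (SD, n = 5, adjusted p = 0.00404). Its probe's ID number is 12 away from that of the membrane protein gene Ms4a6b (-1.01), on the same side. Slc35d2, a nucleotide sugar carrier, averaged -0.36 ± 0.21 (SD, n = 5, adjusted p = 0.0125) and lost its call without mouse 3 (adjusted p = 0.0521) and mouse 5 (0.0506), and Slc35f6 averaged -0.26 ± 0.12 (SD, n = 5, adjusted p = 0.0119). On the positive side lay Slc35a3, which carries UDP-N-acetylglucosamine (0.15 ± 0.07, SD, n = 5, adjusted p = 0.0492), and Slc35a4 (0.18 ± 0.11, SD, n = 5, adjusted p = 0.0421). Slc35a3 lost its call whichever mouse was left out (adjusted p between 0.0770 and 0.138), and also without centring (0.0518), with quantile normalization (0.0638), with scaled arrays (0.0618) and with 1 probe a gene (0.0509). Slc35a4 lost its call without mouse 2 (adjusted p = 0.122), mouse 3 (0.118), mouse 4 (0.0769) and mouse 5 (0.0942). The equilibrative nucleoside carrier gene Slc29a1 averaged 0.12 ± 0.15 (SD, n = 5, adjusted p = 0.192) and did not pass.

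**Figure D3:**
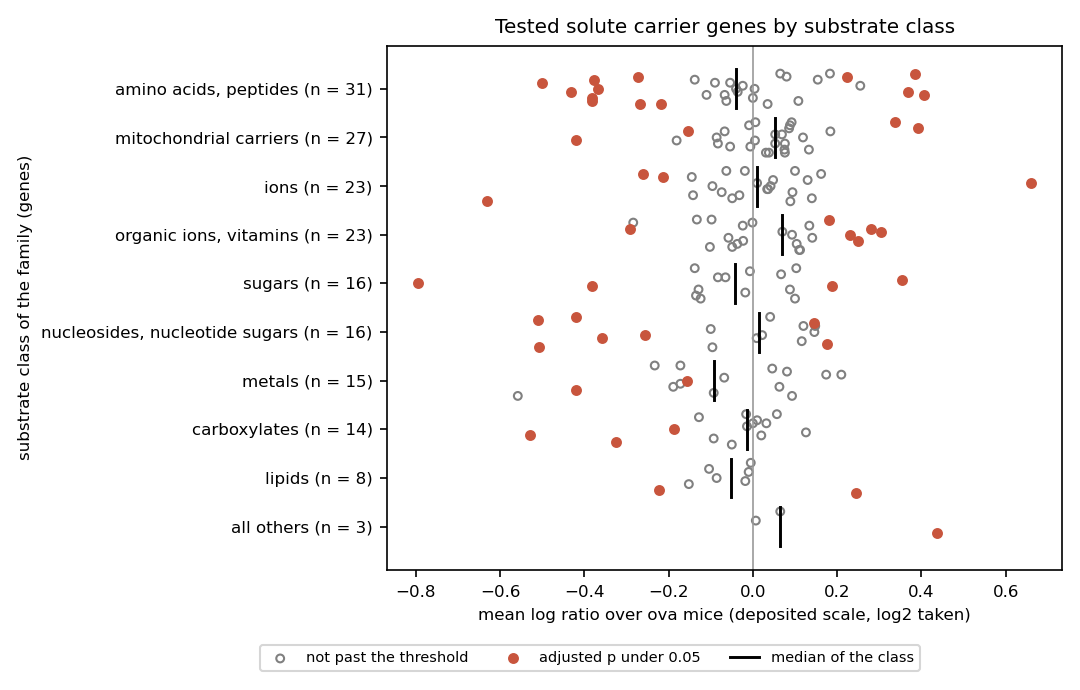
Mean log ratio over the ova mice (horizontal) of each tested solute carrier gene by the substrate class of its family (vertical), in red where limma's adjusted p was under 0.05, with a black bar for the class median and vertical scatter for visibility only. Every class median lies within 0.10 of 0, and called genes lie on both sides in 7 of the 9 named classes.

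Ion carriers held 23 genes, of which 3 passed on the negative and 1 on the positive side (17.4%, against 27.5% of all tested genes). Slc4a1, the chloride and bicarbonate exchanger of the red cell membrane, had -0.15, -0.72, -0.66, -0.64 and -0.99 in mice 1 to 5, with a mean of -0.63 ± 0.31 (SD, n = 5, adjusted p = 0.00464). All mice were negative. Other red cell genes did not lie with it: of 4 measured, 1 passed, above 0, and the means were between -0.12 and 0.17. Slc20a2, a phosphate importer, averaged -0.26 ± 0.17 (SD, n = 5, adjusted p = 0.0254) and lost its call without mouse 3 (adjusted p = 0.0875), mouse 4 (0.0726) and mouse 5 (0.0921). The potassium chloride cotransporter gene Slc12a7 averaged -0.21 ± 0.11 (SD, n = 5, adjusted p = 0.0196) and lost its call without mouse 2 (adjusted p = 0.0576), mouse 3 (0.0612) and mouse 5 (0.0609).

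Slc9a3r2, on the positive side, is, like Slc6a19os, in the list by its name only: it encodes a scaffold protein that tethers ion carriers and other membrane proteins, and is abundant in lung endothelium. It had 0.13, 0.87, 0.62, 0.65 and 1.04 in mice 1 to 5, with a mean of 0.66 ± 0.35 (SD, n = 5, adjusted p = 0.00592). All values were positive and mouse 1 was lowest. The medians of 5 endothelial markers were 0.25, 0.83, 0.64, 0.74 and 0.79 in mice 1 to 5, with mouse 1 lowest too, and their part in this ratio was not tested. Mouse 1 was closest to 0 for 54.3% of all called genes, so this likeness is not particular to these genes. Slc34a2, with which alveolar type 2 cells take up phosphate, had -0.22, -0.10, 0.06, -0.16 and 0.05 in mice 1 to 5, with a mean of -0.07 ± 0.12 (SD, n = 5, adjusted p = 0.365) and a 95% interval from -0.20 to 0.06. Its values lay on both sides of 0 and it did not pass. The anion exchanger genes Slc26a4 and Slc26a2 (-0.65), which were called, belong to a family set aside by the rule. Slc12a2, the basolateral chloride loader of secreting epithelia, averaged 0.09 ± 0.16 (SD, n = 5, adjusted p = 0.31) and the anion exchanger gene Slc4a2 -0.15 ± 0.24 (SD, n = 5, adjusted p = 0.242). Slc34a1 (-0.02), Slc20a1 (0.04) and Slc12a4 (0.09) did not pass either.

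Metal carriers held 15 genes, of which 2 passed, both below 0 (13.3% called, against 27.5% of all tested genes). Slc39a11, a zinc carrier, had -0.11, -0.39, -0.47, -0.79 and -0.34 in mice 1 to 5, with a mean of -0.42 ± 0.25 (SD, n = 5, adjusted p = 0.0113). Slc31a2, a copper transport protein, averaged -0.16 ± 0.07 (SD, n = 5, adjusted p = 0.0403) and lost its call whichever mouse was left out (adjusted p between 0.0563 and 0.118). Slc40a1, the iron exporter ferroportin, had -0.21, -0.25, -0.16, -1.82 and -0.35 in mice 1 to 5. Mouse 4 stood apart. The mean of -0.56 ± 0.71 (SD, n = 5, adjusted p = 0.109) did not pass, and without mouse 4 the mean was -0.24 and the gene passed (adjusted p = 0.0214). The macrophage phagosome metal carrier gene Slc11a1 averaged -0.17 ± 0.22 (SD, n = 4, adjusted p = 0.184), and the iron importer gene Slc11a2 averaged 0.06 ± 0.26 (SD, n = 4, adjusted p = 0.675). The zinc carriers Slc39a4 (-0.23), Slc39a8 (-0.19) and Slc39a14 (-0.07) did not pass.

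Slc48a1, which moves haem out of endosomes and lysosomes into the cytosol, had the highest mean of the tested Slc-named transporters. It had 0.29, 0.65, 0.36, 0.36 and 0.52 in mice 1 to 5, with a mean of 0.44 ± 0.15 (SD, n = 5, adjusted p = 0.00245), and was thus positive in all mice while the iron exporter was negative in all.

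Carriers of organic ions and vitamins held 23 genes, of which 1 passed on the negative and 5 on the positive side. The share called was 26.1%, against 27.5% of all tested genes. Slc22a8, an organic anion exchanger best known from kidney, was the negative one with -0.25, -0.36, -0.17, -0.32 and -0.37 in mice 1 to 5, with a mean of -0.29 ± 0.08 (SD, n = 5, adjusted p = 0.00439). The mice differed little for this gene. The positive ones were Slc22a23, whose substrate is not known (0.30 ± 0.19, SD, n = 5, adjusted p = 0.0173), the thiamine carrier gene Slc19a2 (0.28 ± 0.18, SD, n = 4, adjusted p = 0.0338), the vesicular polyamine carrier gene Slc18b1 (0.25 ± 0.10, SD, n = 5, adjusted p = 0.0104), the choline carrier-like gene Slc44a4 (0.23 ± 0.08, SD, n = 5, adjusted p = 0.0104) and the riboflavin carrier gene Slc52a3 (0.18 ± 0.12, SD, n = 5, adjusted p = 0.0479). Slc22a23 lost its call without mouse 2 (adjusted p = 0.058), mouse 3 (0.0664) and mouse 4 (0.0547). Slc19a2 lost it without mouse 2 (adjusted p = 0.0982), mouse 3 (0.0519), mouse 4 (0.0925) and mouse 5 (0.104), and Slc52a3 without mouse 1 (adjusted p = 0.095), mouse 2 (0.136), mouse 3 (0.118) and mouse 4 (0.096). The ascorbate carrier gene Slc23a2 averaged 0.11 ± 0.05 (SD, n = 5, adjusted p = 0.0904) and did not pass.

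Lipid-related families held 8 genes, of which 1 passed on each side (25% called, against 27.5% of all tested genes). Slc27a1, the fatty acid transport protein of muscle and fat, had 0.23, 0.12, 0.26, 0.35 and 0.26 in mice 1 to 5, with a mean of 0.24 ± 0.08 (SD, n = 5, adjusted p = 0.00865). Slc27a5, a liver enzyme that activates bile acids and fatty acids, lay on the other side at -0.22 ± 0.06 (SD, n = 5, adjusted p = 0.00947). Called genes on both sides were found in 6 of the 45 families, namely Slc1, Slc6, Slc22, Slc25, Slc27 and Slc35, on the negative side alone in 12 and on the positive side alone in 8. In 19 families no gene passed. Of the families with calls on 1 side alone, only Slc7, Slc16 and Slc38 held more than 1 called gene. For the rest, lying on 1 side follows from holding 1 called gene. In 14 of the 45 families only 1 gene was tested. Among the 130 genes that did not pass, means ranged from -0.56 to 0.26, and 108 had a 95% interval within 0.3 of 0.

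Other transport genes, listed as partners, pumps, channels or exporters that work beside solute carriers, were measured in 34 of 52 cases. Of these 17 did not pass, 12 passed above 0, where 12.3% of all tested genes passed, and 5 below 0, where 15.2% did. The list's median was 0.13, against 0.00 for all tested genes. Basigin, Bsg, which brings the lactate carriers to the membrane, had 0.13, 0.30, 0.49, 0.56 and 0.56 in mice 1 to 5, with a mean of 0.41 ± 0.19 (SD, n = 5, adjusted p = 0.00563), and so lay opposite to Slc16a3. Embigin, Emb, another partner of lactate carriers, averaged -0.14 ± 0.19 (SD, n = 5, adjusted p = 0.186) and did not pass. Collectrin, Cltrn, a partner of amino acid carriers, averaged 0.41 ± 0.14 (SD, n = 5, adjusted p = 0.00279).

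Sodium channel subunits of the alveolar and airway epithelium had positive means: Scnn1a had 0.29, 0.72, 0.84, 1.12 and 0.98 in mice 1 to 5, with a mean of 0.79 ± 0.32 (SD, n = 5, adjusted p = 0.00233). Scnn1b averaged 0.41 ± 0.32 (SD, n = 5, adjusted p = 0.0286) and lost its call without mouse 2 (adjusted p = 0.0874), mouse 3 (0.0859), mouse 4 (0.0827) and mouse 5 (0.101), and Scnn1g averaged 0.24 ± 0.15 (SD, n = 5, adjusted p = 0.0238) and lost it without mouse 2 (adjusted p = 0.0705), mouse 3 (0.0618), mouse 4 (0.0632) and mouse 5 (0.08). Fxyd1, a regulator of the sodium pump in heart and muscle, had 0.59, 1.25, 0.88, 1.07 and 1.32 in mice 1 to 5, with a mean of 1.02 ± 0.30 (SD, n = 5, adjusted p = 0.000876). The water channel gene Aqp5 of alveolar type 1 cells averaged 0.51 ± 0.22 (SD, n = 5, adjusted p = 0.00399). All 3 sodium channel subunits, Fxyd1 and Aqp5 had their lowest value in mouse 1, which was below 0 for Scnn1b (-0.14).

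Among exporters, the drug exporter gene Abcb1a averaged 0.54 ± 0.32 (SD, n = 5, adjusted p = 0.0101) and the surfactant lipid exporter gene Abca3 0.28 ± 0.10 (SD, n = 5, adjusted p = 0.0066). The cholesterol exporter gene Abca1 (-0.34 ± 0.20, SD, n = 5, adjusted p = 0.015), Abca7 (-0.42 ± 0.27, SD, n = 5, adjusted p = 0.0149) and Abcc5 (-0.21 ± 0.11, SD, n = 5, adjusted p = 0.0244) were on the negative side, where Abca1 lost its call without mouse 3 (adjusted p = 0.0612) and Abcc5 without mouse 2 (adjusted p = 0.0634), mouse 3 (0.0636) and mouse 5 (0.0679). The fatty acid receptor gene Cd36 averaged 0.41 ± 0.17 (SD, n = 5, adjusted p = 0.00464) and the prostaglandin carrier gene Slco2a1 0.23 ± 0.13 (SD, n = 4, adjusted p = 0.0387), which lost its call without mouse 1 (adjusted p = 0.0777), mouse 2 (0.104), mouse 3 (0.0563) and mouse 5 (0.135). Within this list the smallest called ratios were those of the organic anion carrier gene Slco1a5 (0.15), the glycerol channel gene Aqp9 (-0.15) and the mitochondrial outer membrane channel gene Vdac1 (-0.15). Each of these 3 lost its call whichever mouse was left out, with adjusted p-values up to 0.147 for Slco1a5, 0.124 for Aqp9 and 0.147 for Vdac1. Slco1a5 also lost it without centring (0.0508) and with the array minimum set on the gene (0.108), and Vdac1 with array weights (0.0542).

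**Figure D4:**
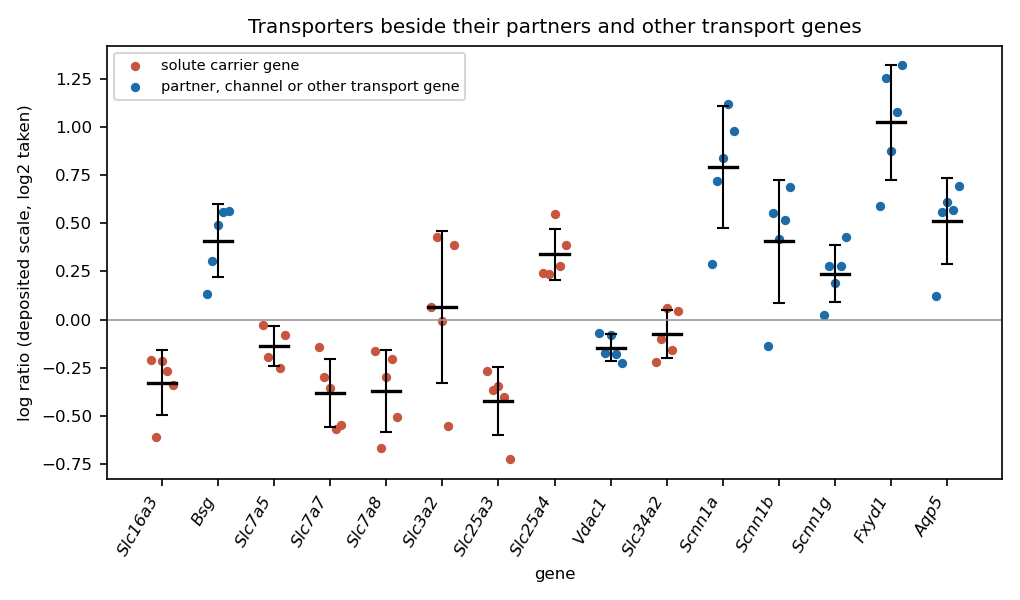
Log ratio of each ova mouse (points, mice 1 to 5 from left to right) for solute carrier genes (red) and for partner, channel and other transport genes (blue), with the mean (bar) and SD (whiskers). Slc16a3 lies below 0 and its partner Bsg above, Slc3a2 straddles 0 while Slc7a7 and Slc7a8 lie below, and the sodium channel genes and Fxyd1 lie above 0 on average.

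Markers of several cell types also differed from 0. Markers called on the negative side were 5 of 6 measured for macrophages and monocytes (all 6 means between -1.99 and -0.24), 4 of 4 for neutrophils (-1.17 to -0.45), 6 of 6 for goblet cells (-4.33 to -0.47) and 6 of 8 cell cycle genes (all 8 between -2.14 and -0.20). Of carriers tied above to such cells, Slc37a2 and Slc7a7 of macrophages were called on that side, and Slc1a5 of dividing cells on the opposite side. Slc11a1 of macrophages, Slc7a5 of proliferating cells and Slc2a3 of leukocytes were not called. Markers called on the positive side were 4 of 5 for endothelium (all 5 means between 0.20 and 0.82), 4 of 5 for alveolar type 1 cells (all 5 between 0.15 and 0.66), 3 of 6 for heart muscle (all 6 between -0.07 and 1.26) and 3 of 3 for fat (0.24 to 1.11). Slc9a3r2 and Slc6a4, of endothelium, and Slc25a4, Slc2a4 and Slc27a1, of muscle and fat, were called on that side. The markers and carriers named here were chosen with earlier results of these data known. Of 4 alveolar type 2 cell markers 2 were called positive and 1 negative, and of 4 eosinophil markers 2 were called negative and 1 positive. The part of cell numbers in any of these ratios was not tested.

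The mice differed in the size of their ratios. Over the 28 genes called on the negative side, the median ratio was -0.17 in mouse 1, -0.36 in mouse 2, -0.30 in mouse 3, -0.40 in mouse 4 and -0.47 in mouse 5. Over the 18 genes called on the positive side it was 0.18, 0.33, 0.26, 0.35 and 0.31 in the same order. Mouse 1 had the value closest to 0 for 28 of the 46 genes (60.9%), as it did for 54.3% of all called genes. Across all tested genes its SD was also the lowest, 0.22 against 0.34 to 0.40 in mice 2 to 5. Without mouse 1, 28 solute carrier genes passed on the negative and 16 on the positive side. Of the 46 called genes 45 lay on 1 side in every mouse that measured them, as did 69 of the 176 tested solute carrier genes. The call itself favours values on 1 side, so this count is no separate measure of agreement among mice.

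**Figure D5:**
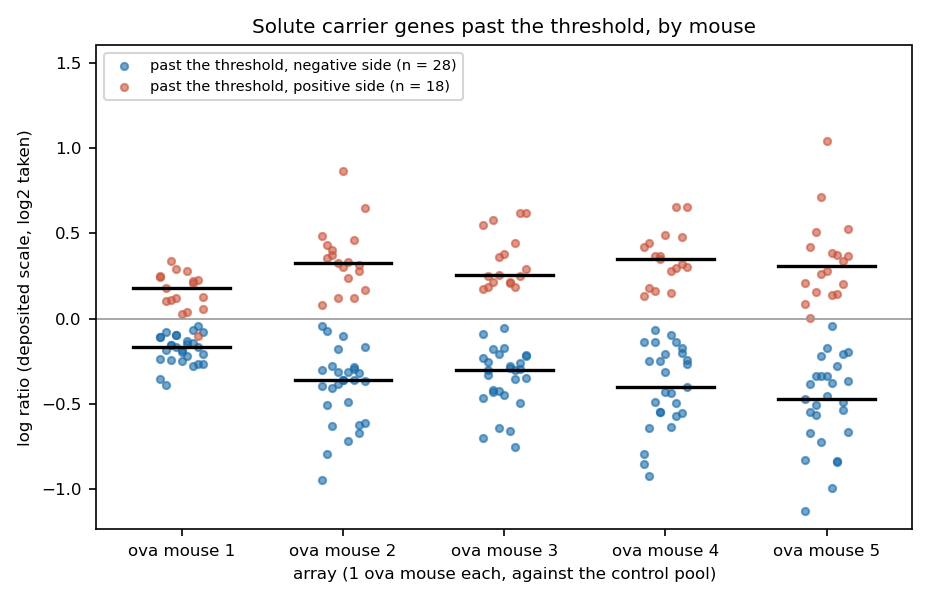
Log ratio (vertical) of the 28 solute carrier genes called on the negative side (blue) and the 18 called on the positive side (red) in each ova mouse (horizontal), with black bars for the medians. Mouse 1 has the medians closest to 0 (-0.17 and 0.18), and the median of the blue points is lowest in mouse 5 (-0.47).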

How the data were processed

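The deposited table gives 1 signed value per probe and array, blank where no value was given, for 17280 probes. It is read here as a log2 ratio, and neither the base nor the numerator is stated. How the authors obtained the deposited values, called log2 ratios here by assumption (scanner, background correction, normalization) is not given in what was used here. Between 11778 and 13320 probes had a value on an array. Spot brightness and background were not used here, so faint spots were not set apart from bright ones. The number of arrays limits the precision as well.

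Probe names came from the platform annotation (14722 probes with 1 gene symbol), checked against the gene table of GRCm38.p6, which changed 0 symbols. After centring every array on its own median, probes that 4 or 5 arrays measured were kept, and the probes of a gene were averaged. Each of 9715 genes was tested against 0 with limma (version 3.58.1, R 4.3.3, an intercept-only lmFit, eBayes, two-sided, Benjamini-Hochberg over all genes, threshold 0.05). The pool is 1 control sample, so the test measures the spread among ova mice and leaves out that of control mice. The smallest two-sided p of an exact sign test over 5 arrays is 0.0625. The labels number the ova mice as separate animals. The fit was tested on simulated data first, with 200 of 9715 genes shifted. It recovered 41% of shifts of 0.3, 83.5% of shifts of 0.5 and 99% of shifts of 1. False calls made up 0%, 1.76% and 5.71% of the calls in that order. The noise was drawn independently for each array, without an error of the shared pool. Fewer genes were shifted than the 27.5% called in the data, so these shares need not hold there. A gene that did not pass may still differ by a small amount.

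The members, gene lists and classes were chosen with earlier results of these data known. Named genes are the 15 of largest mean on each side among called solute carrier genes whose values all lay on 1 side of 0, 49 carriers of known role whatever their values (35 tested), and partner genes past the threshold. Other called members are named to complete the classes, chosen after their values were seen. Classes follow the family number, not the substrate of each gene. Probes at 6, 12, 18 or 24 IDs from a probe with a mean beyond 1 in size were noted, and an alternative left them out. The print layout was not used, so it is not known whether such probes are neighbouring spots. Promoter sequences are from RefSeq, build GRCm38.p6, with the first listed window of a gene used. Alternatives changed the centring or normalization, the array minimum, the rule for several probes, array weights, the variance prior and the mice used.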

Additional observations from a re-analysis of the deposited data

Results flagged for a closer look

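Among the solute carrier genes named, 3 had a mouse far from the others by Dixon's criterion. Slc40a1 had -1.82 in mouse 4, with the other mice between -0.35 and -0.16. Slc6a4 had 0.38 in mouse 2, against 0.16 to 0.22 in the others. Slc25a30 had 0.58 in mouse 3, against 0.31 to 0.34 in the 3 other mice that measured it. Over all 176 genes 7 (3.98%) met the criterion, which chance meets in about 1 in 20 groups, and 6.91% of all tested genes met it. The outlying mouse was mouse 1, 3 or 4 for 2 genes each and mouse 2 for 1.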

How the results depend on the processing

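Over 16 alternatives, 26 of the 46 called solute carrier genes kept their call in all that gave a value, and 0 reversed. Of the 22 named genes that did not pass, 20 stayed so in all. The genes that changed are given in the report with the settings. With 1 mouse left out, between 18 and 28 solute carrier genes passed on the negative side and between 11 and 16 on the positive side, and between 929 and 1440 and between 672 and 1133 of all tested genes. The smaller number of arrays is part of each of these fits. The lowest counts were without mouse 5, except that of positive solute carrier genes, which was without mouse 2. Under the other 11 alternatives the 4 counts stayed within 1.5 times the reported ones. For the solute carrier genes these were 28 to 31 on the negative and 16 to 21 on the positive side. The array minimum set on the gene was chosen after seeing the data. Of the solute carrier genes 10 had a probe near a large ratio by ID number. These were the called Slc28a2, Slc6a4 and Slc25a4, and 7 not called, Slc34a2, Slc25a1 and Slc25a20 among them. Without such probes 167 of the 176 genes were tested. Signal over background could not be used, so faint spots with a value were not separated from bright ones. No paired analysis was possible because the series holds 1 group.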

Other observations

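Of the 249 named solute carrier genes 73 were not tested: 20 had no value on any array, 18 had a value on 1, 16 on 2 and 19 on 3 arrays. Where they had values these lay between -0.58 (Slc10a1, a bile acid carrier, in mouse 5) and 0.56 (Slc7a10 in mouse 3). None with 2 or 3 values lay beyond 0.3 in size in each of them (0 of 35). Carriers of known role among the untested genes included Slc7a1 (-0.02, 0.04 and -0.19 in mice 1, 2 and 5), Slc4a4, a bicarbonate cotransporter (-0.05, 0.05 and -0.05 in the same mice), and Slc7a11 (0.03, 0.05 and 0.13 in mice 1, 2 and 3). Slc25a37, which brings iron into mitochondria, had a value in mouse 4 only (0.34), and Slc38a2, a neutral amino acid carrier, had none. The folate carrier gene Slc19a1 had 0.27 and 0.21 in mice 2 and 5, and the zinc exporter gene Slc30a1 had 0.16 and 0.10 in mice 2 and 3. The scaffold gene Slc9a3r1, a relative of Slc9a3r2, had -0.15, 0.01 and -0.39 in mice 1, 2 and 4.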
